A study of Mus musculus with 3 samples.

Results

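The 33 genes described here encode the contractile apparatus of smooth muscle and the proteins that anchor or regulate it. They were taken by symbol from a list and make up 33 of the 32285 genes counted, and each was found in all 3 count matrices. They were ranked by how far their transcripts were restricted to the muscle of the uterine wall (the myometrium) against their presence in stroma and decidua. By role they comprised 10 thin filament genes (the actins Acta1, Acta2 and Actg2 with Tagln, Cnn1, Cnn2, Tpm1, Tpm2, Cald1 and Lmod1), 5 genes of myosin and its control (Myh11, Myl9, Myl6, Mylk and Ppp1r12b) and 13 genes of intermediate filaments, cross-links and attachment sites (Des, Synm, Smtn, Synpo2, Actn1, Flna, Vcl, Pgm5, Csrp1, Pdlim3, Pdlim7, Ldb3 and Fbxl22). A further 4 encode membrane or calcium-binding proteins (Kcnmb1, Pcp4, Pcp4l1 and Itga8), and Myocd encodes the transcriptional coactivator myocardin.

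Frozen uterine sections were collected from mice at pregnancy day 7.5, from females kept to 8 weeks of age and mated with stud males. The labels name no strain, genotype or treatment, so all comparisons are between regions of the same kind of section. The 3 Visium libraries form 1 group, and 1 of them holds biological replicates 1 and 2 together while the others hold replicate 3 and replicate 4. Visium captures polyadenylated RNA under barcoded spots on a slide and counts it as unique molecular identifiers (UMIs). A spot is a small area that can hold several cells of different types, and fewer cells of a type in a spot cannot be told apart from less RNA per cell.

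Smooth muscle shortens when calcium-bound calmodulin activates myosin light chain kinase, which phosphorylates the regulatory light chain of myosin and lets it pull on actin filaments that are tied through dense bodies to the membrane and to intermediate filaments. The genes of this apparatus are widely regulated by serum response factor together with myocardin, through a DNA element called the CArG box. The myometrium consists of circular and longitudinal layers of such muscle and stays relaxed for most of pregnancy, while the stroma around the implanting embryo decidualizes.

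Promoters of the contractile genes were read from RefSeq (GRCm38.p6) to show where this element lies, over a window of 250 bases before to 50 bases after each annotated start. An entry was found for 29 of the 33 genes, and not for Tagln, Myh11, Actg2 and Myocd. The CArG box was searched on both strands by its consensus of 10 bases, and 7 of these 29 genes (24.1%) held a match, against 1.81% of 27025 genes with a promoter entry. The 7 were Myl9, Acta1, Fbxl22, Cnn2, Myl6, Vcl and Ldb3. A match describes the letters in this window only. The sequences below show the element, in capitals, in 3 genes whose transcripts were concentrated in regions 2, 4 and 12 described below (Myl9, Acta1 and Fbxl22) and in Vcl, the gene with the lowest restriction ratio to region 2.
Myl9: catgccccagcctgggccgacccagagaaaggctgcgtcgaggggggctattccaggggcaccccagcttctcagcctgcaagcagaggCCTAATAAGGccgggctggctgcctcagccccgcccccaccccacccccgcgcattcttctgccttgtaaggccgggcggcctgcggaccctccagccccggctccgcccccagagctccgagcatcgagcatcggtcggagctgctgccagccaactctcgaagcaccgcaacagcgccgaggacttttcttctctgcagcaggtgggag
Acta1: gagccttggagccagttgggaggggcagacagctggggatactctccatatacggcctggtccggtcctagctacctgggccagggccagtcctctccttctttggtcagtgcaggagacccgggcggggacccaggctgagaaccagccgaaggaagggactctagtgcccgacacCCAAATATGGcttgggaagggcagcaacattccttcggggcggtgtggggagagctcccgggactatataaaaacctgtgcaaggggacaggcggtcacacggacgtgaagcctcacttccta
Fbxl22: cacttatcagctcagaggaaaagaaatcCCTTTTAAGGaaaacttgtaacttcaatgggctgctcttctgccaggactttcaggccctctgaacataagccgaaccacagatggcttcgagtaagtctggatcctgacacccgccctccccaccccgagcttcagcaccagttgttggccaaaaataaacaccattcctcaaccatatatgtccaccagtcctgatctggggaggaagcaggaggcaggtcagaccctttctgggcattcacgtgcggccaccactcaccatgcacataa
Vcl: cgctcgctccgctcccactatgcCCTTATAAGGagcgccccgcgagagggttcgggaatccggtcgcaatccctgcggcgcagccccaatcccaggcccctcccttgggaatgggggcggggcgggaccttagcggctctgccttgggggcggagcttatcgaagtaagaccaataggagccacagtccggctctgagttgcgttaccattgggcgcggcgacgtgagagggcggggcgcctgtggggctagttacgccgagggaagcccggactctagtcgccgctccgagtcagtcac
These windows lie at chr2:156775214-156775513 on the plus strand for Myl9, chr8:123894726-123895025 on the minus strand for Acta1, chr9:66514544-66514843 on the minus strand for Fbxl22 and chr14:20929148-20929447 on the plus strand for Vcl. The element begins at position -161 from the start site in Myl9, at -73 in Acta1, at -222 in Fbxl22 and at -227 in Vcl.

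The libraries held 1081 to 1811 spots and 16915926 to 29953072 UMIs, with a median of 8038 UMIs per spot in replicates 1 and 2, 26543 in replicate 3 and 28286 in replicate 4. Of 3978 spots, 3939 had at least 1000 UMIs and were used. The 33 contractile genes took 1.10% of the UMIs of replicates 1 and 2, 0.763% of replicate 3 and 0.891% of replicate 4. Spots were divided into 13 regions by genes other than those described here, and 10 regions had enough spots to be tested. Between 676 and 825 barcodes were shared by pairs of libraries, as Visium barcodes mark positions on the slide.

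By lists of other muscle, stroma and decidua genes, region 2 (leading genes Nppa, Wfikkn2 and Asb2) was taken as the muscle comparison region. Region 4 (Ifi27l2a, Spon2 and Pappa2) and region 7 (Mt4, C3 and Tmem213) were taken as the stromal comparison regions. Region 1 (Olr1, Sfrp5 and Psca), region 5 (Srd5a1, S100a8 and Bco1) and region 8 (Ptx3, Cbln1 and Klk7) were the decidual ones. Spots of a region were summed within each library, and levels are given as CPM, a gene's UMIs scaled to an equal total in every sum. A decidual level is the mean of the CPM of regions 1, 5 and 8. Some regions were uneven between libraries: region 6 (Serpina3n, Gzmf and Gzme) held 3 spots in replicates 1 and 2 against 173 and 128 in replicates 3 and 4, region 11 held 147, 0 and 1 spots, and region 13 held 62, 0 and 3. Region 12 held 32, 11 and 11 spots, under the minimum of 20 in 2 libraries, and was described without a test except where stated.

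Region 2 also carried transcripts of other tissues. The 16 stroma genes, whose list gave the stromal roles, summed to 17656 to 21668 CPM in region 2 and 16711 to 21809 CPM in region 4. Both regions thus held stroma signal at overlapping summed levels. Of the 16, 1 was called higher in region 2 than in region 4 and 0 lower, near the shares of all genes (7.67% and 5%). In region 12 they summed to 10084 to 14274 CPM. Region 4 in turn carried muscle signal. The 24 other muscle genes, whose list gave region 2 its role, summed to 997 to 1629 CPM in region 4 and 1780 to 2138 CPM in region 2. They summed to 577 to 676 CPM in region 7 and 3543 to 4120 CPM in region 12. Their mean z-score across tested regions was 1.42 in region 2, 1.00 in region 4 and 0.17 in region 7. Regions 2 and 4 thus do not set pure muscle against pure stroma. The summed level of 18 decidua marker genes was 8804 to 13819 CPM in region 2 over the 3 libraries, with Bmp8a at 0 in replicate 3. It was 2413 to 3339 CPM in region 4, where Bmp8a was at 0 in replicate 4. In region 12 the same list summed to 983 to 1303 CPM, with Bmp8a at 0 in all 3 libraries and Mt3, Prl3c1 or Erv3 at 0 in 1 each. The 10 gland and epithelial markers summed to 1607 to 4101 CPM in region 2, 93.7 to 127 CPM in region 4 and 10.5 to 51.8 CPM in region 12, where Prss29, Foxa2, Epcam and Cdh1 were at 0 in every library. Foxa2 was also at 0 in all libraries of region 4 and in 2 of region 2. The part of these other cells in the levels of the contractile genes was not tested.

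Against the decidual regions, the contractile genes were higher in region 2 almost without exception. Of the 32 that passed the filter on low counts, 30 were called higher, which required a log2 fold change of 1 or more and an adjusted p under 0.05 in edgeR's quasi-likelihood test (Benjamini-Hochberg). Over all 6505 genes tested, 20.6% were higher and 14.7% lower by the same rule. All 32 log2 fold changes were positive, with a median of 5.75, against 0.03 for all genes tested. The difference was 5 or more on the log2 scale for 20 genes, from 2 to under 5 for 8 genes and under 2 for 4 genes. The exceptions to the call were Actn1 and Vcl, whose differences of 0.92 ± 0.12 and 0.67 ± 0.13 (SE) were under the minimum size, and Myocd had too few UMIs to be tested.

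**Figure D1:**
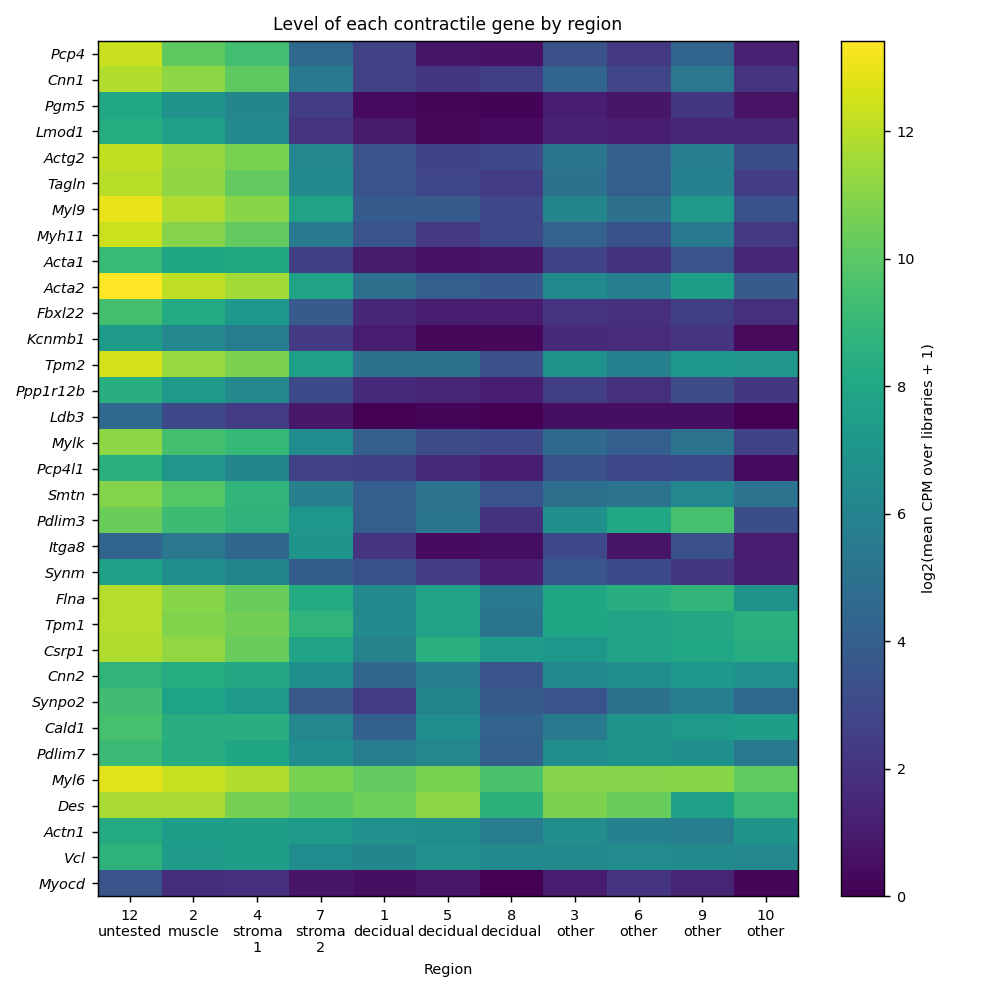
Mean level of each of the 33 contractile genes (rows) in region 12 and the 10 tested regions (columns), as log2 of the mean CPM over libraries plus 1, shown by colour; rows are ordered by their difference between region 2 and the decidual regions and are to be read along the row. The upper rows are bright in regions 12, 2 and 4 and dark elsewhere, while Myl6, Des, Actn1 and Vcl near the bottom are spread over all regions.

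The 10 thin filament genes were all higher in region 2 than in the decidual regions, with a median log2 difference of 7.83. Cnn1, which encodes calponin, an actin-binding inhibitor of myosin ATPase, stood at 2824 CPM in replicates 1 and 2, 1919 in replicate 3 and 1987 in replicate 4 of region 2. Its decidual levels were 5.98, 2.94 and 4.25 CPM in the same libraries. No decidual value of Cnn1 came near those of region 2. The log2 fold change was 8.67 ± 0.13 (SE), with an adjusted p of 3.46e-29 (edgeR quasi-likelihood, Benjamini-Hochberg). Lmod1, leiomodin, which nucleates actin filaments in smooth muscle, was 208, 155 and 221 CPM in region 2, while only 15 UMIs were counted in the decidual regions of all libraries.

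The smooth muscle actins Actg2 and Acta2 and the actin cross-linker Tagln (transgelin) differed by 8.17 ± 0.16, 7.67 ± 0.15 and 8.15 ± 0.18 on the log2 scale. Acta1 encodes skeletal muscle alpha-actin, and its difference was 7.99 ± 0.18. Cnn2, Tpm1 and Cald1, whose products also serve the cytoskeleton of cells other than muscle, differed least among the thin filament genes, by 3.51 ± 0.13, 4.18 ± 0.14 and 3.15 ± 0.18. The actins are nearly identical as proteins, and how reads that fit several genes were counted is not given in the sources used here. Levels of single actins may therefore be less certain than those of the other genes.

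All 5 genes of myosin and its control were higher in region 2. Myh11, the smooth muscle myosin heavy chain, stood at 2393, 1781 and 1994 CPM in region 2 and at 7.51, 7.37 and 5.73 CPM in the decidual regions, so the groups lay far apart. Its log2 fold change was 8.03 ± 0.15 (adjusted p = 5.46e-27, edgeR quasi-likelihood with Benjamini-Hochberg adjustment). The regulatory light chain Myl9 differed by 8.12 ± 0.14, the kinase Mylk by 5.95 ± 0.14 and Ppp1r12b, a targeting subunit of myosin phosphatase, by 6.28 ± 0.19. Myl6, the essential light chain shared with nonmuscle myosin, was present in every region and differed by only 1.86 ± 0.07.

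The genes of intermediate filaments, cross-links and attachment were the most varied set, with 11 of 13 higher. Pgm5 (aciculin, a protein of adhesion sites) and Fbxl22 (an F-box protein of the contractile apparatus) lay at the upper end with differences of 8.57 ± 0.26 and 7.22 ± 0.20. Pgm5 was counted 471 times in region 2 and 6 times in the decidual regions, a ratio of CPM of 533 with a 95% Poisson interval of 245 to 1452 that covers counting error only. Ldb3, a PDZ and LIM protein of Z-discs and dense bodies, was sparse: 26 UMIs in region 2 against 2 in the decidual regions gave a ratio of 88.3 (95% interval 24.4 to 729).

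Des, which encodes the intermediate filament protein desmin, lay at the lower end. It stood at 4251, 2905 and 2988 CPM in region 2 and at 1437, 1117 and 1401 CPM in the decidual regions, a log2 difference of 1.37 ± 0.14. Every decidual value of Des was lower than every region 2 value, and the difference was the smallest among the called genes. Actn1 (an alpha-actinin) and Vcl (vinculin), general components of adhesion sites, were 236, 140 and 182 CPM and 199, 134 and 165 CPM in region 2. In the decidual regions they were 88.0, 70.7 and 94.0 CPM and 81.1, 81.7 and 97.8 CPM.

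All 4 membrane and calcium-binding genes were higher. Pcp4, a small regulator of calmodulin, showed the largest difference of the 33 genes, 9.20 ± 0.21 on the log2 scale. Its levels in region 2 were 1226, 1019 and 976 CPM, and in the decidual regions 2.03, 2.52 and 1.71 CPM, with no overlap. Kcnmb1, the beta subunit of the large-conductance calcium-activated potassium channel, differed by 7.20 ± 0.31, Pcp4l1, a relative of Pcp4, by 5.55 ± 0.21 and the integrin subunit gene Itga8 by 5.17 ± 0.31.

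**Figure D2:**
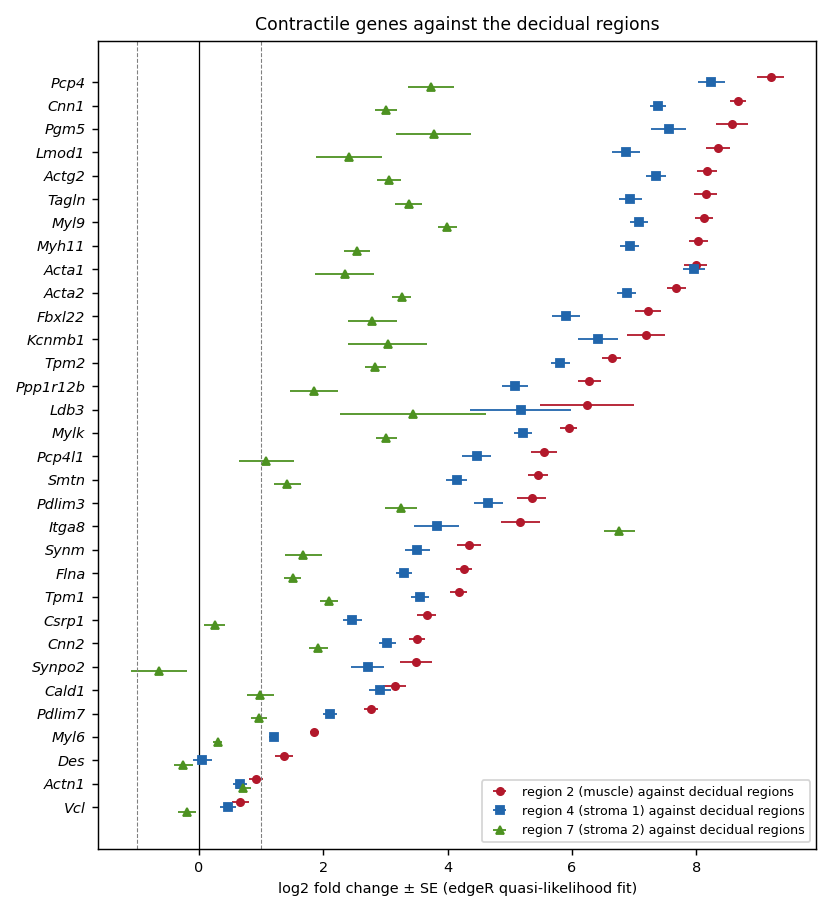
Log2 fold change ± SE of the 32 tested contractile genes in region 2 (red circles), region 4 (blue squares) and region 7 (green triangles), each against the decidual regions, from the edgeR quasi-likelihood fit; dashed lines mark a log2 fold change of 1 in either direction. Pcp4 reaches 9.20 in region 2, the blue squares lie slightly to the left of the red circles for most genes, and Itga8 is the one gene whose green triangle lies farthest right, at 6.76.

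Region 4 carried most of the contractile genes at high levels too, beside markers of other cells. The 10 natural killer markers summed to 452 to 1882 CPM in region 4 and 64.8 to 187 CPM in region 2. Of these 10, 9 were lower in region 2 than in region 4 (5% of all genes). The 5 blood genes summed to 2026 to 3338 CPM in region 4 and 863 to 2584 CPM in region 2. No natural killer or blood gene was at 0, and the part of these cells in the contractile levels was not tested. Of the 32 contractile genes tested, 29 were higher in region 4 than in the decidual regions, against 22.2% of all genes tested. All 32 log2 fold changes were positive. Pcp4 differed by 8.24 ± 0.22, Acta1 by 7.96 ± 0.18 and Cnn1 by 7.38 ± 0.13. Des (0.05 ± 0.15), Actn1 (0.66 ± 0.12) and Vcl (0.47 ± 0.13) were not called. The comparisons of regions 2, 4 and 7 with the decidual regions share those decidual sums.

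When regions 2 and 4 were compared directly, 13 of 32 genes were higher in region 2, against 7.67% of all genes tested. All 32 log2 differences were positive under TMM scaling, with a median of 0.89, but the mean CPM was higher in region 4 for Acta1, Cald1 (344 against 339) and Vcl (173 against 166). The 13 were Cnn1, Lmod1, Myh11, Myl9, Tagln, Ppp1r12b, Pgm5, Fbxl22, Smtn, Csrp1, Des, Pcp4l1 and Itga8, with Lmod1 at 1.48 ± 0.14 and Cnn1 at 1.29 ± 0.13. This count changed with the way regions were drawn and given the muscle and first stromal roles. It was 0 at a clustering resolution of 0.3 (where the muscle role fell on spots that shared none with region 2) and 22 at a resolution of 1.0. With regions drawn from the other gene set it was 28, with spots of at least 5000 UMIs 2 and with no minimum of UMIs 3. It was 30 with sums of at least 10 spots (where region 12 took the muscle role and was set against region 4). Over all genes, 256 were higher at resolution 0.3, 242 at 1.0 and 285 with sums of at least 10 spots, against 499 in the main setting. Numbers of all genes for the other settings are not given here.

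Among the actins, Acta1 showed the smallest difference in this comparison. It stood at 304, 202 and 217 CPM in region 2 and at 396, 202 and 249 CPM in region 4. The ranges overlapped, and within the libraries Acta1 was higher in region 2 in 0 of 3. Its log2 difference was 0.03 ± 0.13 (adjusted p = 0.914, edgeR quasi-likelihood with Benjamini-Hochberg adjustment), while that of Acta2 was 0.80 ± 0.17 and that of Actg2 0.82 ± 0.17, both under the minimum size. Acta2 was 4826, 4109 and 4581 CPM in region 2 and 3729, 2312 and 3094 CPM in region 4, higher in region 2 in each of the 3 libraries. Acta1 had 49.7% ± 12 (SD, n = 3 libraries) of its UMIs in region 4 and 31.5% ± 11.3 in region 2, whereas Acta2 had 36.3% ± 11.8 and 38.0% ± 9.53. Whether Acta1 and Acta2 differ from each other in this respect was not tested.

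Region 7 held little of the contractile program. In region 2 29 of 32 genes were higher than in region 7, against 7.43% of all genes tested, and Itga8 was lower, against 5.21%. Actn1 and Vcl differed by 0.21 ± 0.15 and 0.85 ± 0.17 and were not called. Still, 24 of 32 genes were higher in region 7 than in the decidual regions, against 16.9% of all genes tested, with a median log2 difference of 2.38. Myl9 was 243, 188 and 193 CPM in region 7, Acta2 222, 204 and 203 CPM and Mylk 91.0, 86.9 and 98.6 CPM. These values were uniform over the libraries and far below those in region 2.

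Itga8, which encodes an integrin subunit that pairs with the beta 1 chain and binds matrix ligands, ran against the rest. It stood at 134, 125 and 107 CPM in region 7, at 51.5, 26.4 and 44.3 CPM in region 2 and at 40.4, 9.30 and 16.3 CPM in region 4. All 3 values of region 7 lay above all of region 2. The log2 difference of region 2 from region 7 was -1.59 ± 0.22 (adjusted p = 1.56e-06, edgeR quasi-likelihood with Benjamini-Hochberg adjustment), and against the mean of all other regions Itga8 was higher in region 7 by 5.35 ± 0.18. Region 7 held 54.8% ± 4.26 (SD, n = 3) of its UMIs, and region 12, where most contractile genes peaked, had only 27.6, 10.5 and 21.6 CPM. Where redrawn regions took the muscle and second stromal roles, the log2 difference was 1.91 at a resolution of 0.3 and 0.95 at a resolution of 1.0. The spots with the second stromal role shared 0 with region 7 at both resolutions. At 0.3 the spots with the muscle role also shared 0 with region 2. Those values therefore do not compare region 2 with region 7.

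**Figure D3:**
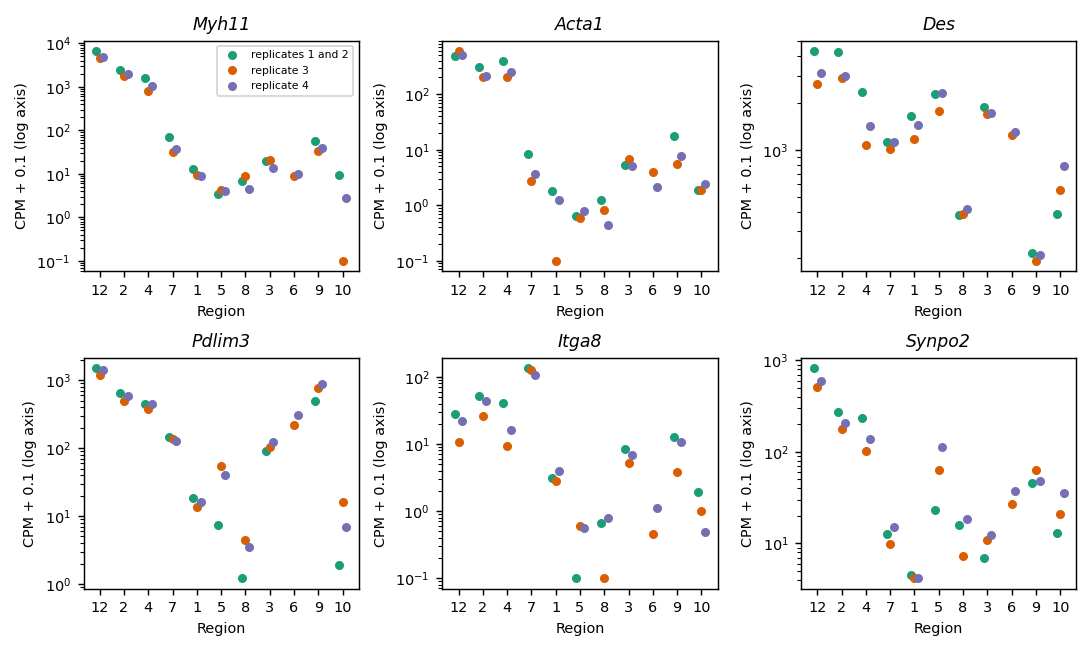
Level in each library (points, CPM plus 0.1 on log axes) of 6 contractile genes in region 12 and the 10 tested regions, with green for replicates 1 and 2, orange for replicate 3 and purple for replicate 4. Myh11 falls from regions 12, 2 and 4 to all others, the values of Acta1 in regions 2 and 4 overlap, Des stays above 1000 CPM in regions 1, 3, 5 and 7, Pdlim3 rises again in region 9 and Itga8 peaks in region 7.

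Each region was then compared with the mean of the other tested regions. In region 2 30 of 32 genes were higher (15.2% of all genes tested) and in region 4 28 (13.8%). Lower calls prevailed in region 8, with 25 genes (16.8% of all genes), in region 1, with 22 (11.3%), in region 10, which was led by Plet1, Pfpl and Psg29, with 20 (15.4%), in region 5, with 18 (8.13%), and in region 6, with 13 (5.49%, on 2 libraries). In region 7 8 genes were higher (10.7%) and Synpo2 was lower (2.63%), and in region 3 6 were lower (5.13%). The high levels of regions 2 and 4 enter the mean that each other region is set against.

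The few genes called higher in regions other than 2, 4 and 7 were so in different regions. Pdlim3, an alpha-actinin-associated PDZ and LIM protein, was higher in region 9 (led by Gzmf, Gzmd and Gzme) by 3.20 ± 0.17 and in region 6 by 1.69 ± 0.21, where it was the 1 higher call in each (10.9% and 7.24% of all genes). Its levels in region 9 were 502, 768 and 888 CPM, against 660, 503 and 591 CPM in region 2, and the ranges overlapped. Region 12 had 1496, 1214 and 1402 CPM, above both. The decidual regions had 1.12 to 55.4 CPM of Pdlim3 over their 9 sums. A direct test of region 9 against region 2 was not run.

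Des was higher in region 5, by 1.29 ± 0.12 over the mean of other regions, with 2282, 1788 and 2338 CPM. It was 1652, 1179 and 1448 CPM in region 1, 378, 385 and 416 CPM in region 8 and 217, 193 and 211 CPM in region 9. The decidual regions thus differed among themselves by more than the spread over libraries, and region 9 had the lowest mean level of Des among the tested regions. In region 9 the log2 difference was -2.96 ± 0.18 for Des, -1.49 ± 0.33 for Synm, a partner of desmin in the intermediate filament, and -1.30 ± 0.13 for Actn1, the 3 lower calls there (10.1% of all genes).

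Synpo2, or myopodin, an actin-bundling protein of Z-discs, was also higher in region 5, by 1.46 ± 0.22, and these were the 2 higher calls there (13.6% of all genes). It stood at 23.2, 63.8 and 113 CPM in region 5, with replicates 1 and 2 lowest, and at 4.39, 4.08 and 4.12 CPM in region 1. Csrp1, a LIM protein of actin filaments, had 240, 374 and 504 CPM in region 5 and 62.8, 61.2 and 64.5 CPM in region 1, but was not called against the mean of the other regions. In both genes replicates 1 and 2 had the lowest value of region 5.

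The ranking by restriction to region 2 used, for each gene and library, the percent of its UMIs in region 2 over the percent of all UMIs there. Region 2 held 8.50%, 3.34% and 5.65% of all UMIs in the 3 libraries. UMIs in region 12 counted as outside. The 24 other muscle genes summed higher there (3543 to 4120 CPM) than in region 2 (1780 to 2138 CPM). The ratio was highest for Lmod1, 8.93 ± 1.82 (SD, n = 3), followed by Cnn1 at 8.89 ± 2.45, Tagln at 8.04 ± 1.44, Fbxl22 at 8.01 ± 1.94 and Myh11 at 7.80 ± 1.99. These neighbours did not differ beyond their spread. At the other end were Myl6 at 2.48 ± 0.09, Des at 2.29 ± 0.19, Myocd at 1.73 ± 0.06, Actn1 at 1.72 ± 0.14 and Vcl at 1.63 ± 0.21. The Myocd value rests on 3, 2 and 5 UMIs in region 2 and has little weight. With regions drawn from the other gene set, the ratio moved by more than its SD for 31 of the 33 genes. Pcp4 then ranked first at 14.6, Lmod1 and Cnn1 were at 11.9 and 11.8, Acta1 was at 11.1, and Itga8 was last at 1.98, so the order of single genes depended on how the regions were drawn.

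The shares were also taken over regions 2, 4, 12 and 13 pooled, which adds the first stromal region. Region 13 had no role by the lists and was rich in blood transcripts, with 5 blood genes at 220733 and 334516 CPM in its 2 libraries, and its mean share over libraries was under 5% of the UMIs of each gene. The 4 regions held 15% ± 1.32 of all UMIs (SD, n = 3), and 11 of the 33 genes had at least 90% of their UMIs there. A further 7 genes had 75% to under 90%, 5 had 50% to under 75% and 10 had under 50%. Pcp4 had the largest share, 96.5% ± 1.09, and Cnn1 (95.6% ± 1.04), Myh11 (95.2% ± 1.26) and Acta1 (93.9% ± 1.06) were among the 11. Regions 2 and 12 without the others held at least 50% of the UMIs of 15 genes, with Pcp4 at 64.5% and Lmod1 at 62.6%. Over the 4 regions Des had the smallest share, 24.2% ± 7.83, with 36.8% ± 4.31 of its UMIs in the decidual regions, while these regions held 37.1% ± 3.18 of all UMIs. Pcp4 ranked 14 by region 2 alone, since 29.2% ± 4.24 of its UMIs lay in region 12.

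**Figure D4:**
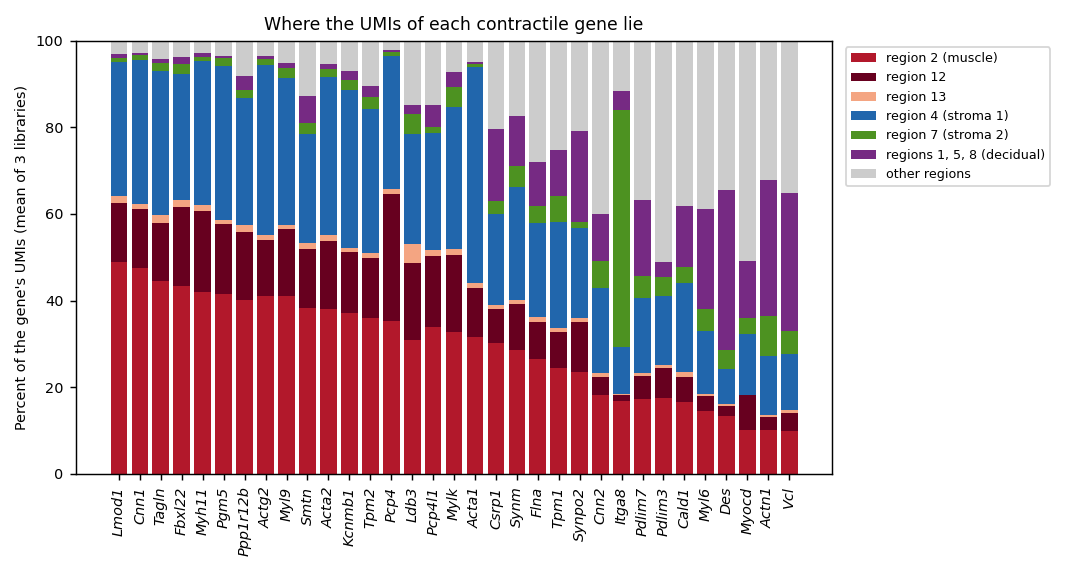
Percent of the UMIs of each contractile gene (bars, mean of 3 libraries) that lay in region 2, region 12, region 13, region 4, region 7, the decidual regions and all others, with genes ordered by their restriction ratio for region 2. Regions 2, 12, 13 and 4 fill more than 90% of the bars of genes such as Cnn1 and Myh11, the green part fills over 50% of the bar of Itga8, and purple and grey dominate Des, Actn1 and Vcl.

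Depth differed between regions, so the share of spots with at least 1 UMI was also taken after thinning each spot to 3000 UMIs, which left out 168 spots of replicates 1 and 2, 2 of replicate 3 and 3 of replicate 4. Cnn1 was then found in 96.9% ± 3.05 (SD, n = 3) of region 2 spots, 74.5% ± 9.54 of region 4, 13.7% ± 3.30 of region 7 and 1.18% ± 0.60 of decidual spots. Lmod1 was found in 40.3% ± 5.95, 22.5% ± 3.03, 0.61% ± 1.05 and 0.06% ± 0.10. In replicates 1 and 2 the median depth was 4866 UMIs per spot in region 2, against 10311, 13346 and 9120 in regions 1, 5 and 8. The spots left out may thus lie more in region 2 than in the decidual regions, and their number by region is not given here. Without thinning, the shares in region 2 and the decidual regions were 98.2% and 8.22% for Cnn1 and 69.9% and 1.21% for Lmod1. Des was found in 88.7% ± 2.55 of decidual spots and Vcl in 23.6% ± 3.59, against 99.7% ± 0.49 and 37.5% ± 10.6 in region 2.

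Region 12 held higher levels than region 2 for most of the genes. The 33 genes together took 9.46%, 7.15% and 7.93% of its UMIs, against 4.61%, 3.58% and 4.11% in region 2 and 3.17%, 1.99% and 2.53% in region 4. Myh11 stood at 6582, 4679 and 4872 CPM there and Acta2 at 12490, 9758 and 10641 CPM, all above every value of region 2. The ratio of region 12 to region 2 had a median of 2.21 over the 33 genes, from 0.47 for Itga8 to 4.93 for Pcp4. Des was level between the regions, at 0.99. With sums of at least 10 spots admitted, an alternative added after seeing the data, 33 of 33 genes were higher in region 12 than in the decidual regions (16.9% of all genes), 30 than in region 4 (4.4%) and 14 than in region 2 (2.05%). Pcp4 had the largest log2 difference from region 2, 2.17 ± 0.20, and Itga8 the lowest, -1.17 ± 0.43, which was not called.

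**Figure D5:**
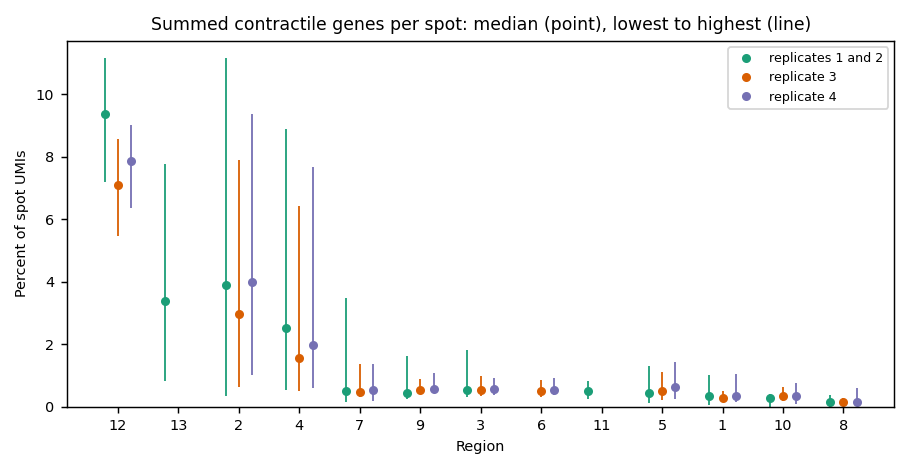
Percent of a spot's UMIs that came from the 33 contractile genes, by region and library, as the median over spots (points) and the range from the lowest to the highest spot (lines); regions with fewer than 10 spots in a library are not drawn for it. The medians are 9.37, 7.08 and 7.85 in region 12, 3.90, 2.95 and 3.98 in region 2 and 0.14 to 0.16 in region 8.

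Myocd was too sparse to be described as a level. It was counted 20 times in replicates 1 and 2, 36 times in replicate 3 and 50 times in replicate 4. Of these UMIs, 15 lay in region 6 in each of replicates 3 and 4, 3, 2 and 5 in region 2, and 3, 1 and 3 in region 12. None was found in region 8. In the alternative that admitted region 12, Myocd was 1.93 ± 0.74 higher there than in region 2 on the log2 scale and was not called (adjusted p = 0.0936, edgeR quasi-likelihood with Benjamini-Hochberg adjustment). Among 10 tested genes for other serum response factor partners and muscle regulators, 4 were higher in region 2 than in the decidual regions (20.6% of all genes). These were Gata6 (5.44 ± 0.42), Tead3 (2.15 ± 0.18), Elk1 (1.42 ± 0.28) and Srf itself (1.14 ± 0.20).

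Across the 29 sums of regions and libraries, the genes varied largely together. The log2 CPM of 21 of the 32 tested genes correlated with the mean of the tested genes at a Pearson r of 0.9 or more, 8 lay between 0.7 and 0.9, and Des (0.38), Actn1 (0.52) and Vcl (0.59) lay lower. Each gene is itself part of that mean, and the sums share libraries and depth. Outside all lists, the genes with the most similar pattern among 4135 were Ilk (r = 0.95), Ppp1r14a (0.94), Dgkz (0.92), Col16a1 (0.91), Selenom (0.90), Ccdc80 (0.90), Lama4 (0.90), Ltbp4 (0.89), Abhd16a (0.89) and Anxa6 (0.89). Ilk encodes integrin-linked kinase and Ppp1r14a encodes CPI-17, an inhibitor of myosin phosphatase.

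Other genes of the pathway were read from separate lists. Of 20 tested muscle genes outside the 33, whose list gave region 2 its role, 16 were higher there than in the decidual regions (20.6% of all genes), which is a description only. Among them were Tgfb1i1 (4.96 ± 0.12), an adaptor of adhesion sites, Jph2 (6.36 ± 0.21), a protein that couples calcium stores to the membrane, Mrvi1 (5.73 ± 0.19) and Dmpk (4.01 ± 0.16). The 2 lower genes, named after their values were seen, were Sorbs2 (-2.65 ± 0.11) and Dtna (-2.52 ± 0.18). In region 4, taken as stromal by its stroma genes, 15 of the same 20 were higher than in the decidual regions (22.2% of all genes). Their median log2 difference over the 20 was 3.48.

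Of 14 tested uterotonic receptor and coupling genes, 10 were higher in region 2 than in the decidual regions and 1 lower (20.6% and 14.7% of all genes). Higher were the oxytocin receptor Oxtr (7.65 ± 0.60), the estrogen receptor Esr1 (1.86 ± 0.14) and the connexin gene Gjc1 (2.48 ± 0.27), among others. The list summed to 510 to 602 CPM in region 2, but to 1166 to 1269 in region 1, 1461 to 1636 in region 5 and 525 to 741 in region 8. Against region 7, 5 were higher and 2 lower (7.43% and 5.21% of all genes), with a median of -0.14. Gja1, which encodes the gap junction protein connexin 43, had a log2 fold change of -2.37 ± 0.15 and was lower. Of 20 nonmuscle actomyosin genes, 6 were higher (20.6% of all genes were higher and 14.7% lower), among them Zyx (1.64 ± 0.10), Actb (1.49 ± 0.10) and Ppp1r12c (1.53 ± 0.10). The 2 lower ones were Cnn3 (-1.49 ± 0.09) and Rock2 (-1.50 ± 0.13), the latter named after its value was seen, and the median of this list was -0.23.

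Pericytes, the mural cells of small vessels, share several contractile genes. Of 9 pericyte markers 6 were higher in region 2 than in the decidual regions (20.6% of all genes), among them Cspg4 (3.04 ± 0.18), Kcnj8 (2.78 ± 0.21) and Mcam (2.02 ± 0.11). Their summed level was 374 to 451 CPM in region 2, 402 to 438 CPM in region 4 and 367 to 536 CPM in region 12. Higd1b was at 0 in all 3 libraries of region 12 and Ndufa4l2 in replicate 4. The ranges of the pericyte sum overlapped between the 3 regions, while those of Myh11 and Acta2 lay higher in region 12 than in regions 2 and 4. The part of pericytes in the levels of the contractile genes was not tested.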

How the data were processed

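The deposited matrices hold raw counts, UMIs per gene and spot, which the authors made with Space Ranger, version 1.2.2 in the file headers. Cell Ranger and mm10 are named in the submitters' processing notes. How reads that fit several genes were counted is not given in the sources used here. Spots with at least 1000 UMIs were kept. The contractile genes and all other lists were chosen with earlier results of these data known.

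Genes were divided at random into 2 sets. Spots were clustered (leidenalg 0.10.2, resolution 0.6, 15 neighbours, 20 principal components) on the 1500 most variable genes of set 1, leaving out all listed genes. Counts were summed per region and library where a sum had at least 20 spots, which gave 29 sums of 549360 to 5759494 UMIs. Roles were given to regions by lists that hold none of the 33 genes. Set 2 and the listed genes were tested with edgeR 4.0.16 (quasi-likelihood test, TMM scaling, filterByExpr, library as a block). The block pairs regions of the same library. Genes were called where the log2 fold change reached 1 in either direction and p, adjusted by Benjamini-Hochberg over all genes tested, was under 0.05. The same listed genes entered every test, and regions of a library share its sections. Spots are not replicates, and the library holding replicates 1 and 2 counted as 1 sample. The p-values rest on an estimate of the spread shared by all 29 sums, which come from only 3 libraries. Apart from the block, regions of the same library were treated as independent, so small p-values do not measure the spread between animals. The text names all 33 genes, up to 4 genes of each other list with the smallest p, and the 10 genes outside the lists with the most similar pattern.

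The fit was tested on simulated data for region 2 against the decidual regions, with 5973 genes: 42.6% of genes changed 1.5-fold, 76.2% changed 2-fold and 98.4% changed 4-fold reached an adjusted p under 0.05, and 0.0691% of unchanged genes did. The simulated counts were drawn independently, without library effects and with changes in region 2 only, so these rates may not hold for the real data. Alternatives covered DESeq2 1.42.0, its size factors, the filters, the clustering, the block and each library left out. Poisson intervals and shares cover counting error only.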

Additional observations from a re-analysis of the deposited data

Results flagged for a closer look

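Signal of the contractile genes also appeared in regions that were too small or too uneven to be tested. In region 12 they took 9.46% of UMIs in replicates 1 and 2, 7.15% in replicate 3 and 7.93% in replicate 4. In region 13, which lay almost wholly in the library of replicates 1 and 2, they took 3.34% of its UMIs there, beside 220733 CPM from 5 blood genes and at a median depth of 1895.5 UMIs per spot. In region 11, likewise nearly confined to that library with 147 of its 148 spots, they took 0.512% of UMIs, and Myocd was counted 4 times.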

How the results depend on the processing

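Across the alternatives, the number of contractile genes higher in the region with the muscle role than in the decidual ones was 29 to 33, where the 33 belong to region 12, and 30 to 31 when each library was left out in turn. The comparison of regions 2 and 4 was the least stable: 12 to 18 genes were higher with 1 library left out, the 12 without replicate 3 or replicate 4 and the 18 without replicates 1 and 2. It was 3 with no minimum of UMIs and 2 with at least 5000 UMIs. With no replicate block the counts were 30 and 13, with DESeq2 30 and 14. In the main setting 20.6% and 7.67% of all genes were higher in these comparisons. For region 12, with sums of at least 10 spots, the shares were 16.9% and 4.4%. Shares of all genes under the other alternatives are not given here. Against stroma 1, 22 contractile genes were higher at resolution 1.0 and 30 with sums of at least 10 spots, against 13 in the main setting. All genes higher numbered 242 and 285 there, against 499 in the main setting. At resolution 0.3 the contractile and all-gene counts were 0 and 256. Where no count of all genes is given, the counts alone do not show whether the contractile genes moved more than other genes.

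Without a minimum fold change, 27 contractile genes were higher in region 2 than in region 4. Over all genes this setting gave 2038 higher and 1888 lower for region 2 against the decidual regions, 1064 and 866 against region 4, 983 and 967 against region 7, 2279 and 1917 for region 4 against the decidual regions and 1754 and 1575 for region 7 against them.

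Redrawn regions moved the roles. With the other gene set, 28 contractile genes were higher in muscle than in stroma 1, and Synpo2 turned to 1.91 in stroma 2 against decidua. At resolution 0.3, where 0 of the 485 spots of region 2 kept the muscle role, 0 were higher and 1 was lower than in stroma 1, with 256 genes of all higher; 0 were lower than in stroma 2, 1 was lower in stroma 2 than in decidua, and 524 genes of all were lower in stroma 1 than in decidua. There Des turned to -0.073 against decidua. Against stroma 1 the values were Tagln -0.13, Cnn1 -0.17, Des -0.63, Smtn -0.11, Lmod1 -0.30, Ppp1r12b -0.032, Csrp1 -0.22, Itga8 -2.49 and Fbxl22 -0.040, and against stroma 2 Pdlim3 -0.040 and Itga8 1.91. In stroma 2 against decidua Synpo2 was 1.16 and Synm -0.56.

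At resolution 1.0, 22 were higher in muscle than in stroma 1 with 242 genes of all, 0 were lower than in stroma 2, and 452 genes of all were lower in stroma 1 than in decidua. Itga8 was -0.90 against stroma 1 and 0.95 against stroma 2, and Synpo2 3.96 in stroma 2 against decidua. With sums of at least 10 spots, added after seeing the data, region 12 took the muscle role: 30 were higher than in stroma 1 with 285 genes of all, and 14 higher and 0 lower than in stroma 2 with 133 genes of all. Des was -0.14 against stroma 2 and 1.40 in stroma 2 against decidua, where Synpo2 was 3.50. Redrawn regions change by construction which spots hold a role, and other causes were not tested. Few UMIs limit Myocd and Ldb3. With the other gene set 31 of 33 restriction ratios moved.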

Other observations

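Some markers of other cell types also differed between region 2 and the decidual regions. By the same rule, 20.6% of all genes tested were higher in region 2 and 14.7% lower, to be read beside each count below. Of 10 macrophage genes 7 were higher in region 2 and 1 was lower. Among them C1qa, C1qc and C1qb, which encode complement subunits, were higher by 4.56 ± 0.20, 4.17 ± 0.21 and 3.72 ± 0.20 on the log2 scale (SE, edgeR quasi-likelihood). Of 10 endothelial genes 4 were lower, and Emcn, Pecam1 and Cdh5 had values of -1.77 ± 0.16, -1.48 ± 0.14 and -1.76 ± 0.21. Of 9 gland genes 3 were higher, with a list median of 0.44, and Prss28 and Prss29, which encode secreted proteases, were higher by 6.80 ± 0.20 and 6.43 ± 0.27. Among 5 tested striated muscle genes, of 15 listed, 3 were higher and 1 was lower. The 15 genes summed to 67.1 to 113 CPM in region 2. In the decidual regions they summed to 21.8 to 40.7 CPM in region 1, 91.0 to 325 CPM in region 5 and 190 to 1512 CPM in region 8. Ckm, the muscle creatine kinase, was higher by 5.73 ± 0.79 and Tnnc1, cardiac troponin C, had a value of -2.17 ± 0.27.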
